A study of Mus musculus with 31 samples.

Results

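The 35 genes described here act in mitosis, the step in which a cell divides its copied chromosomes between daughter cells. They were taken from a fixed list of symbols, all 35 matched a gene in the count tables, and all 35 passed the filter on low counts in every comparison, out of 45706 gene identifiers in all. RNA-seq counts came from bone marrow cells of wild type C57BL/6 mice aged 10 weeks, which received an intraperitoneal dose of PBS alone or of PBS with 1 mg of β-glucan, a glucose polymer of fungal cell walls. Long-term hematopoietic stem cells (called HSC below) were sorted 7 days later (4 PBS and 3 β-glucan libraries) and 28 days later (4 and 4). Multipotent progenitors (MPP), the dividing descendants of stem cells that still form several blood lineages, were sorted at day 28 (4 and 4). A last set of HSC (4 and 4) came from mice given 150 mg/kg of 5-fluorouracil (5-FU), a drug that kills dividing cells, 7 days after PBS or β-glucan, and sampled 14 days after the 5-FU. No mouse carried an engineered allele, and nothing in the labels ties replicates to separate animals, so a p-value reflects only the spread between these libraries.

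Entry into mitosis is driven by the kinase Cdk1 with cyclins A and B, whose targets include other kinases such as Plk1 and the Aurora kinases. Kinetochores then assemble on centromeres and attach chromosomes to the spindle, the spindle checkpoint holds the cell until all are attached, and the anaphase-promoting complex (APC/C) then marks cyclin B and securin for destruction. Most of these genes are transcribed in G2 and M phase and are low in resting cells, and adult long-term HSC are known for resting most of the time, whereas MPP divide more often.

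The libraries held 19331663 to 39485556 counts (median 29751430). Levels are given as CPM, a gene's share of a library's TMM-scaled total count expressed as counts per 1000000, and levels of different genes are compared only as RPKM, which also divides by exonic length in kilobases. In bulk RNA of this kind, fewer dividing cells and less RNA of a gene per cell cannot be told apart. No marker of the 20 long-term HSC markers was at 0 in any group, and their summed level was 667 to 2344 CPM over the 31 libraries. The 17 matched markers of red cell precursors summed to 18219 to 227072 CPM and the 15 of late neutrophils to 41908 to 258091 CPM, so RNA typical of those cells was abundant in every library sorted as HSC or MPP. The part of such cells in the levels of the mitosis genes was not tested. In HSC of PBS mice at day 28, replicate 2 stood apart. Its 35 mitosis genes summed to 5963 CPM against 4386 to 4523 CPM in the other 3 libraries, it was the highest of its group for 31 of the 35, and it lay a median of 0.42 log2 units above the others (from -0.34 for Incenp to 0.74 for Ect2). The same library had the lowest summed HSC markers of its group (788 CPM against 995 to 1215) and the highest summed DNA replication genes (8921 CPM against 6380 to 6834). For the 35 genes, the edgeR calls and medians that turned on this library are given with and without it.

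Many promoters of G2 and M phase genes hold a CHR element (core TTTGAA, sometimes TTCGAA), which the MuvB protein complexes bind, and CCAAT boxes, which NF-Y binds. RefSeq (build GRCm38.p6) gave a promoter window, 250 bases before to 50 bases after the start of transcription, for 30 of the 35 genes. TTTGAA or TTCGAA was present on either strand in 24 of the 30 (80.0%, Wilson 95% interval 62.7 to 90.5%), against 21.7% of the 27025 genes with a window. CCAAT was present on either strand in 22 of the 30 (73.3%) against 41.1% of all genes, and both motifs in 20 of 30 (66.7%) against 8.61%. In 22 genes a CHR core lay within 50 bases of the start, and 16 had at least 2 CCAAT boxes. A match is a description of the letters and not of binding. 6 windows are printed 5′ to 3′, cut 30 bases after the start, with matches to either motif in capitals on either strand (TTTGAA reads TTCAAA and CCAAT reads ATTGG on the other strand). The first 4 belong to the 4 genes that were lower in HSC 7 days after β-glucan, namely Mki67 (chr7:135716350-135716629, minus strand), Cenpf (chr1:189688057-189688336, minus strand), Cenpe (chr3:135212313-135212592, plus strand) and Ube2c (chr2:164769679-164769958, plus strand). The last 2 belong to genes that did not pass the test there, Cdc20 (chr4:118437314-118437593, minus strand) and Ccnb1 (chr13:100786457-100786736, minus strand).
Mki67: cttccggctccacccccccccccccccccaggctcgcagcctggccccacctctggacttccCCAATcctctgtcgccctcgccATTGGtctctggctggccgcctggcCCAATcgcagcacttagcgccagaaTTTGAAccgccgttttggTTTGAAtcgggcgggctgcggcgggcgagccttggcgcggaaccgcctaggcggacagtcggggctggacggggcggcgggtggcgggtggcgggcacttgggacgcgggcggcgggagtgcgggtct
Cenpf: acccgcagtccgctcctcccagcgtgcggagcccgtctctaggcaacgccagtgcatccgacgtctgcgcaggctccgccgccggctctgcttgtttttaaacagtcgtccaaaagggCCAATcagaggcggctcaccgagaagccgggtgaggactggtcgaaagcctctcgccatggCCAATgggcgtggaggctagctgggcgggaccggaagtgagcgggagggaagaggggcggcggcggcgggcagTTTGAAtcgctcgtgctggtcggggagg
Cenpe: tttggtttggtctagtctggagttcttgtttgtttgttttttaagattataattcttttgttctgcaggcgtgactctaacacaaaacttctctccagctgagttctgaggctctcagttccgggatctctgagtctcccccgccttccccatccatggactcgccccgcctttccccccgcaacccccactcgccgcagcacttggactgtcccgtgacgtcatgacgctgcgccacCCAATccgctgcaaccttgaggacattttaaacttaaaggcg
Ube2c: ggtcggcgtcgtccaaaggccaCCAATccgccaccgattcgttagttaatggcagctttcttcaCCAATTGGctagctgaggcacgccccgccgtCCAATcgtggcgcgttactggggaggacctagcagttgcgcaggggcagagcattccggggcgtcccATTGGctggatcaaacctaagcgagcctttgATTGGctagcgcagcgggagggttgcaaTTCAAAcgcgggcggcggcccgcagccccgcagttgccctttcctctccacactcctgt
Cdc20: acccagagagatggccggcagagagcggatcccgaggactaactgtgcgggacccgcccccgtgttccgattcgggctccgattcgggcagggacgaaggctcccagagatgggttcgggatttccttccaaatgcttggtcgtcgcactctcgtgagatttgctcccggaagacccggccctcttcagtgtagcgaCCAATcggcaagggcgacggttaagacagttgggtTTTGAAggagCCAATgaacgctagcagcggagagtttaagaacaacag
Ccnb1: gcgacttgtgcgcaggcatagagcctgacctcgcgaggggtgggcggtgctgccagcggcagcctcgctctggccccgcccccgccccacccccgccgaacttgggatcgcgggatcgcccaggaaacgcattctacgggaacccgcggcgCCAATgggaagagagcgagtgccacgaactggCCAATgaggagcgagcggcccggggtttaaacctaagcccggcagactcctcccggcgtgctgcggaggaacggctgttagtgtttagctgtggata
Of the 4 genes lower at day 7, Mki67, Cenpf and Ube2c held both motifs, and the printed Cenpe window held a CCAAT box with no CHR core. Cdc20 held both motifs and Ccnb1 held CCAAT boxes with no CHR core in the printed window.

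Per length, Ccnb2 (cyclin B2) had the highest level of the 35, with a median of 115 RPKM over the 31 libraries, ahead of Ube2c (94.5 RPKM), the E2 enzyme of the APC/C, Plk1 (68.6 RPKM) and Top2a (65.0 RPKM), the topoisomerase that untangles sister chromatids. The lowest were Cenpf (4.55 RPKM), a large outer kinetochore protein, Ttk (5.21 RPKM), the MPS1 kinase of the spindle checkpoint, and Ccna2 (7.07 RPKM), cyclin A2. Mki67, which encodes the chromosome coat protein Ki-67 used as a marker of dividing cells, ranked 24 of 35 at 14.6 RPKM. Neighbours in this order did not in general separate, since the ranges over libraries were wide (16.8 to 45.0 RPKM for Kif20a at rank 13 and 16.6 to 40.3 RPKM for Tpx2 at rank 14).

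Across the groups, 30 of the 35 genes had all 4 day 28 group means above every mean of day 7 and of 5-FU, and for 18 of them the lowest day 28 library was above every library of the other 2 settings. Each setting was deposited as its own table, so day, treatment and table cannot be told apart, and these levels carry no test. The summed level of the 35 genes was 3414 ± 154 CPM (SD, n = 4) in PBS and 3247 ± 170 CPM (n = 3) in β-glucan HSC at day 7. It was 4841 ± 750 CPM in PBS and 4984 ± 175 CPM in β-glucan HSC at day 28, 5004 ± 42.6 and 5027 ± 131 CPM in MPP, and 3267 ± 250 and 3211 ± 95.1 CPM after 5-FU (n = 4 each). At day 7, in MPP and after 5-FU the sums of PBS and β-glucan libraries overlapped. In HSC at day 28 they overlapped only through PBS replicate 2, without which the PBS sums were 4467 ± 71.6 CPM (SD, n = 3; 4386 to 4523 CPM), below all 4 β-glucan sums (4747 to 5156 CPM). The heat map of each gene over the 31 libraries shows the block of higher levels at day 28 and the single PBS library that stood apart.

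**Figure D1:**
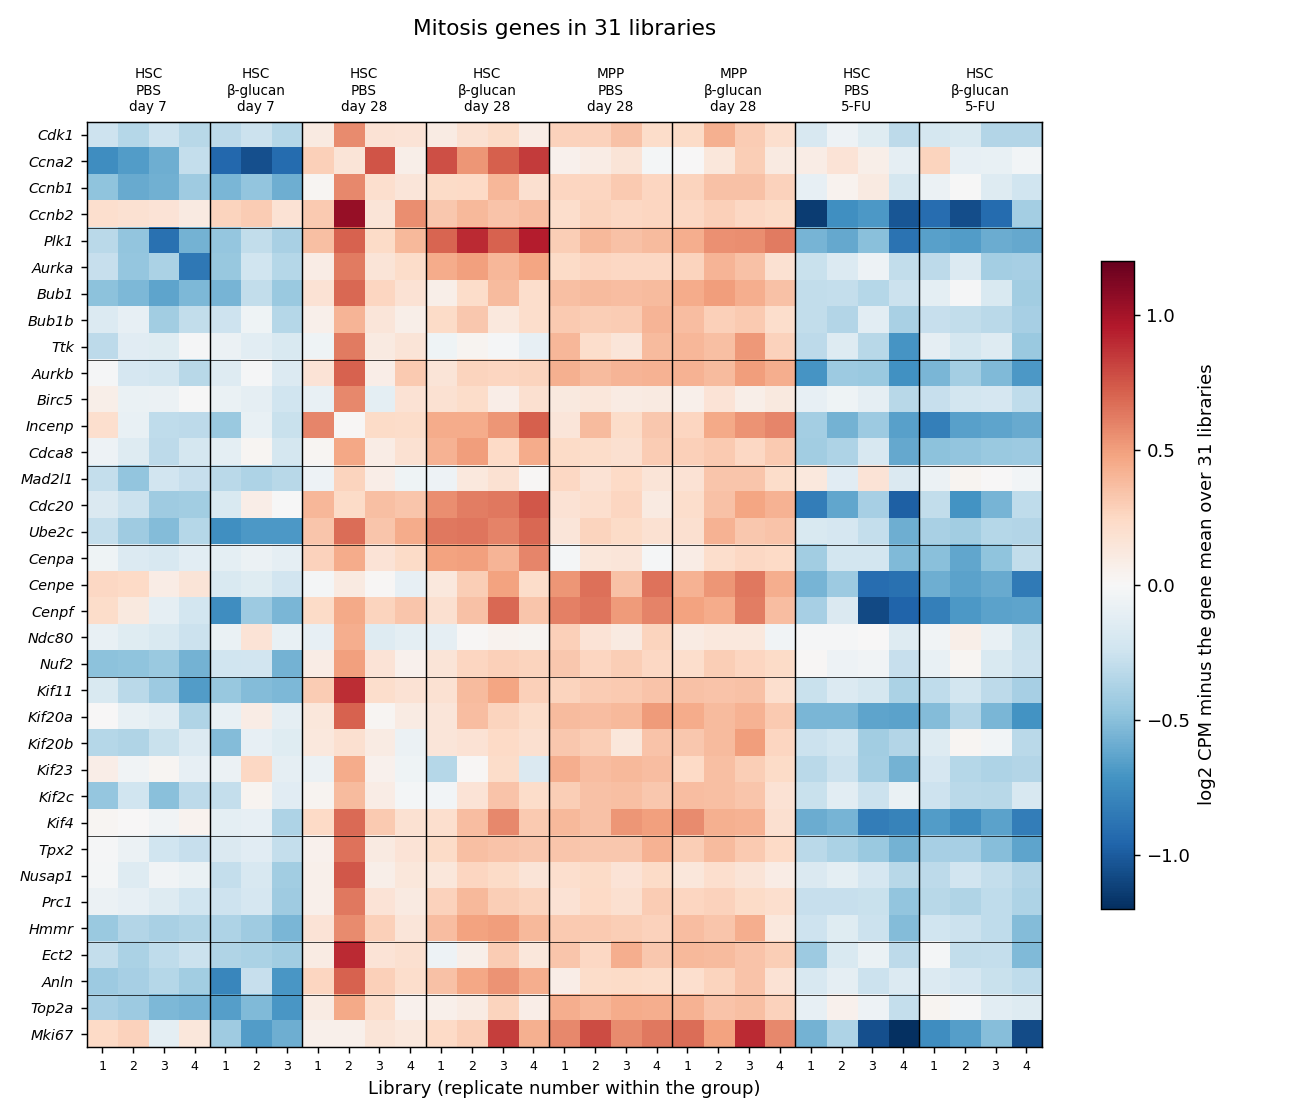
Level of each of the 35 mitosis genes (rows, grouped by role) in each of the 31 libraries (columns, grouped by cell type, setting and injection), as log2 CPM relative to the gene's mean over all libraries. The 16 libraries of day 28 are mostly above the mean and those of day 7 and 5-FU mostly below it, with HSC PBS day 28 replicate 2 the highest of its group for 31 genes.

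Among the regulators of mitotic entry, Cdk1, the master kinase, stood at 149, 139.5, 148 and 141 CPM in PBS and 142, 148 and 139 CPM in β-glucan HSC at day 7. At day 28 it was 190.5, 262, 199 and 198 CPM in PBS HSC, 189, 200.4, 207 and 188 CPM in β-glucan HSC, 214, 214, 226 and 207 CPM in PBS MPP and 208, 238, 219 and 204 CPM in β-glucan MPP. After 5-FU it was 155, 169, 160.1 and 142 CPM with PBS and 153, 156, 138 and 138 CPM with β-glucan. Injection groups overlapped in all 4 settings, and the day 7 and 5-FU libraries lay below every day 28 library. Ccnb1 (cyclin B1, the partner that activates Cdk1) stood at 74.6, 68.6, 69.9 and 77.4 CPM in PBS and 71.3, 75.1 and 69.5 CPM in β-glucan HSC at day 7, and at 106, 156, 119 and 115 CPM and 122, 123, 137 and 119 CPM at day 28. It was 125, 124, 129 and 124 CPM in PBS MPP, 125, 133, 133 and 126 CPM in β-glucan MPP, 97.1, 107, 112 and 89.9 CPM after 5-FU with PBS and 99.2, 104, 93.4 and 88.2 CPM after 5-FU with β-glucan. It too overlapped between injections in every setting, and 23.4% of its 50-base stretches also occur in other genes, so its counts are uncertain. Ccnb2 ran from 68.6 to 93.8 CPM in PBS and 72.3 to 114 CPM in β-glucan HSC after 5-FU, below all its libraries elsewhere (163 to 312 CPM).

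Among the mitotic kinases and chromosome proteins, Plk1, which acts from mitotic entry to cytokinesis, stood at 87.7, 84.5, 91.5 and 70.0 CPM after 5-FU with PBS and 82.2, 81.3, 85.6 and 84.7 CPM with β-glucan. These were near its levels at day 7 (103, 93.1, 69.4 and 87.4 CPM with PBS and 93.5, 105 and 98.5 CPM with β-glucan), and its day 28 values are given with that comparison. Aurkb (Aurora B, the kinase of the chromosomal passenger complex, which corrects faulty attachments) stood at 110.1, 97.2, 95.7 and 88.5 CPM in PBS and 100.4, 110.3 and 99.5 CPM in β-glucan HSC at day 7. At day 28 it was 125, 182, 118 and 139 CPM and 124, 134, 133 and 134 CPM in HSC, and 149, 145, 148 and 149 CPM and 149, 145, 157 and 151 CPM in MPP, PBS first. After 5-FU it was 68.2, 82.6, 82.1 and 67.2 CPM with PBS and 76.0, 83.8, 77.4 and 69.3 CPM with β-glucan. Top2a stood at 428, 417, 389 and 384 CPM in PBS and 358, 391 and 348 CPM in β-glucan HSC at day 7, and at 526, 586, 542 and 465 CPM and 577, 561, 519 and 508 CPM after 5-FU. At day 28 it was 603, 775, 655 and 585 CPM in PBS HSC, 589, 604, 679.9 and 597 CPM in β-glucan HSC, 766, 744, 769.6 and 764 CPM in PBS MPP and 752, 718, 726 and 684 CPM in β-glucan MPP. Aurkb was lowest after 5-FU, Top2a was lowest at day 7, and the injection groups of both genes overlapped in each setting.

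In HSC 7 days after injection, 4 of the 35 mitosis genes fell with β-glucan and 0 rose. The 4 were Mki67, Cenpf, Cenpe, the kinesin that carries chromosomes along the spindle from the kinetochore, and Ube2c. The rest of the machinery stayed near its PBS level, with 28 of the 35 genes within 0.25 of 0 on the log2 scale and a median of -0.01, against -0.01 over all 16403 genes tested. Over all genes, 3.88% were called lower and 2.83% higher by edgeR (quasi-likelihood test, threshold of 0.05 on p adjusted by Benjamini-Hochberg), so 4 of 35 lower is a larger share than the background. In 7 of the 35 every β-glucan library lay below every PBS library (Mki67, Ccna2, Cenpe, Cenpf, Kif4, Nusap1 and Ube2c) and in 1 above (Ndc80), against 9.83% and 9.05% of all genes.

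Mki67 (chromosome 7, 135689788 to 135716379 in mm10, minus strand, 14 exon blocks) read 158, 162, 123 and 147 CPM in the PBS libraries and 99.6, 84.2 and 89.3 CPM in the β-glucan libraries. All 3 β-glucan libraries were below all 4 PBS libraries. The log2 fold change was -0.70 ± 0.10 (SE), a fold of 0.616, with an edgeR adjusted p of 0.00223. Cenpf (chromosome 1, 189640606 to 189688086, minus strand) read 70.2, 65.4, 56.2 and 51.7 CPM with PBS and 36.0, 44.7 and 41.4 CPM with β-glucan, again without overlap, a log2 fold change of -0.58 ± 0.12 (edgeR adjusted p = 0.0167). Cenpe (chromosome 3, 135212537 to 135273611, plus strand) read 67.8, 67.7, 60.7 and 63.7 CPM with PBS and 50.3, 51.6 and 48.9 CPM with β-glucan. Its libraries were tightly grouped within each injection and apart between them, with a log2 fold change of -0.37 ± 0.08 (edgeR adjusted p = 0.0157). Ube2c (chromosome 2, 164769898 to 164778822, plus strand) read 183, 166, 156 and 176 CPM with PBS and 133, 138 and 139 CPM with β-glucan, a log2 fold change of -0.32 ± 0.08 (edgeR adjusted p = 0.0347). Its groups did not overlap either, and 22.8% of its exonic bases overlap other genes, chiefly Tnnc2, whose reads cannot be told apart without strand.

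The next genes by p did not pass. Ccna2, a cyclin of S and G2 phase, read 16.5, 17.3, 18.3 and 22.5 CPM with PBS and 14.3, 13.2 and 14.5 CPM with β-glucan, without overlap, with a log2 fold change of -0.41 ± 0.13 (edgeR adjusted p = 0.0813). Nusap1, which bundles spindle microtubules, was at -0.22 ± 0.08 (edgeR adjusted p = 0.125). By role, all 5 mitotic kinases were above 0, from 0.02 to 0.16, with Plk1 at 0.16 ± 0.12. The log2 fold change was -0.01 ± 0.07 for Cdk1 (95% interval -0.15 to 0.12), -0.01 ± 0.08 for Ccnb1 (-0.16 to 0.14), 0.08 ± 0.09 for Aurkb and -0.15 ± 0.08 for Top2a. Cdc20, the APC/C activator, was at 0.28 ± 0.11 (edgeR adjusted p = 0.159). The plot of 6 genes by library shows Mki67, Cenpe, Cenpf, Ube2c and Ccna2 lower with β-glucan at day 7 beside Plk1, which was not.

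**Figure D2:**
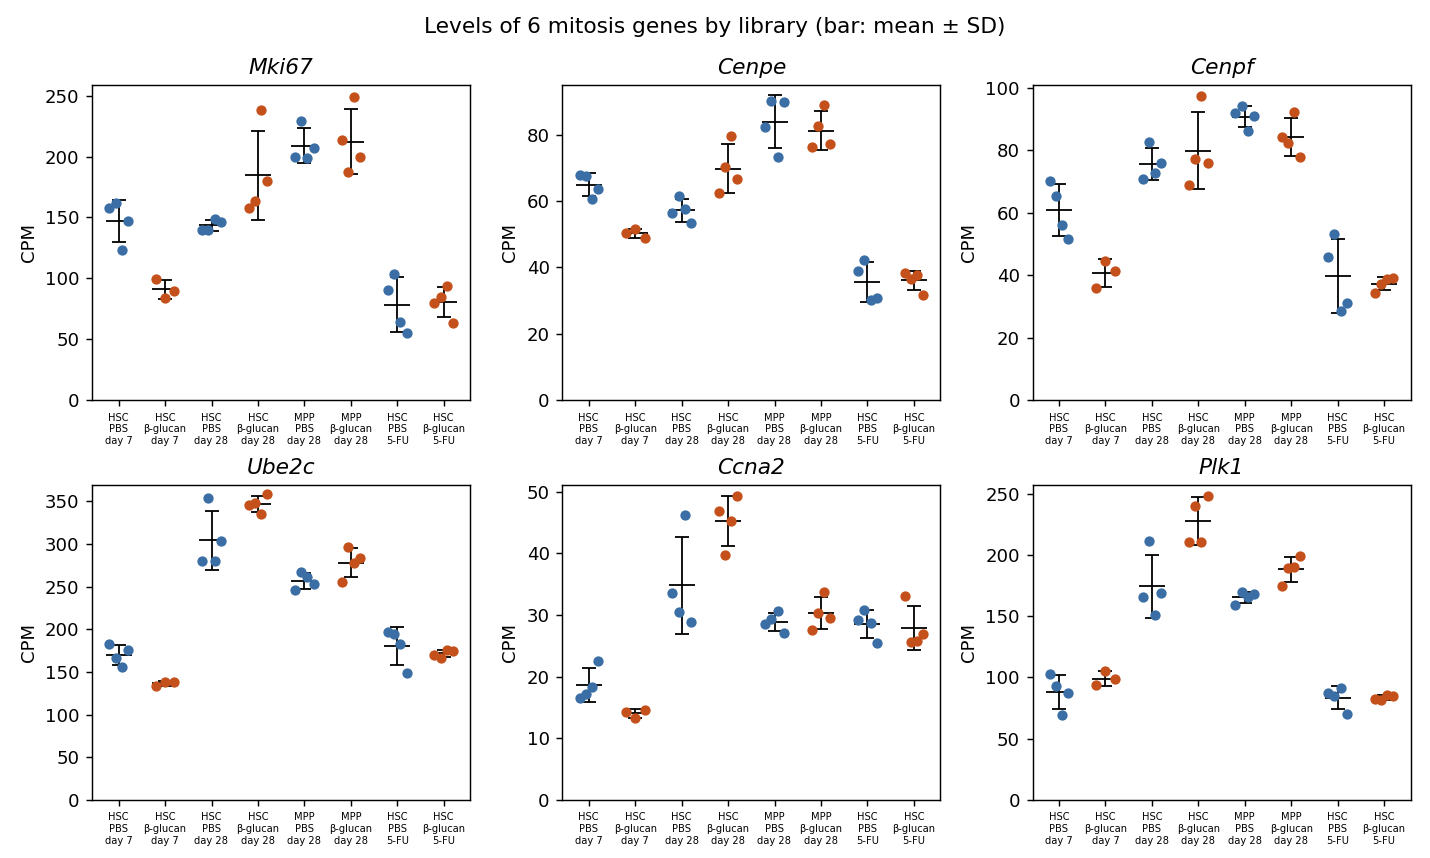
CPM of Mki67, Cenpe, Cenpf, Ube2c, Ccna2 and Plk1 in each library (points) of the 8 groups (x axis), with the mean and SD of each group; the y axis starts at 0. At day 7 the 3 β-glucan libraries lie below the 4 PBS libraries for the first 5 genes and overlap with them for Plk1.

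Other properties moved with this result. Of all genes with a mean of at least 5 CPM, those of 8000 exonic bases or more (1272 genes) had a median log2 fold change of -0.17 at day 7 with 11.8% called lower, and those under 2000 bases (2438 genes) 0.07 with 3.69%. Cenpf (15433 bases), Mki67 (10075) and Cenpe (8620) are among the 5 longest of the 35, beside Top2a and Prc1, and Ube2c is short (2600). With a length trend taken out of each library, an alternative chosen after seeing the data, edgeR called 2 genes. These were Mki67 at -0.56 (adjusted p = 0.00453) and Ube2c at -0.37 (adjusted p = 0.0157), while Cenpe was at -0.26 (adjusted p = 0.0565) and Cenpf at -0.35 (adjusted p = 0.136). Markers of red cell precursors summed to 49859 to 61851 CPM with PBS and 18219 to 24074 CPM with β-glucan, and 15 of the 17 fell. Markers of granulocyte and monocyte precursors summed to 5879 to 6753 CPM with PBS and 9399 to 14410 CPM with β-glucan, and 10 of 14 rose. B lineage markers summed to 1901 to 2073 CPM with PBS and 1014 to 1543 CPM with β-glucan, and 13 of 16 fell. Late neutrophil markers summed to 41908 to 47915 CPM with PBS and 60218 to 93095 CPM with β-glucan, and 10 of 15 rose. Of the other marker lists, edgeR called 3 of 20 long-term HSC genes (2 higher), 3 of 12 monocyte and dendritic cell genes (1 higher), 1 of 14 T and NK cell genes (lower), 1 of 13 megakaryocyte genes (higher) and 0 of 13 stromal genes. No marker of these lists was at 0 in every library of a group, and the part of these cells in the result was not tested. Mki67 was called in all 16 alternatives (edgeR, DESeq2 and limma adjusted p 2.03e-08 to 0.0177), Cenpf in 13, Cenpe in 12 and Ube2c in 9. Without PBS replicate 2 or β-glucan replicate 3, edgeR called 1 gene, Mki67.

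In HSC 28 days after injection, 0 of the 35 genes passed the edgeR test, where 0.0374% of the 16025 genes tested were called in either direction. The median over the 35 was 0.04 against -0.02 over all genes, with 20 of 35 above 0 and a range of -0.27 to 0.37. At an unadjusted p under 0.05 there were 6 of the 35 against 17.0% of all genes. DESeq2 called 2 of the 35 (Cdc20 and Plk1), against 589 of the 16025 genes in either direction. Every β-glucan library lay above every PBS library for Mki67, Cdc20 and Cenpe, 3 of 35 against 4.18% of all genes, and below for 0 of 35 against 4.52%.

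Mki67 read 139.8, 139.8, 149 and 146 CPM with PBS and 157, 163, 238 and 179.7 CPM with β-glucan at day 28. The β-glucan libraries were all higher but spread more widely, with a log2 fold change of 0.35 ± 0.12 (edgeR adjusted p = 0.183). Plk1 read 166, 211, 151 and 169 CPM with PBS and 210.5, 239.9, 211 and 248 CPM with β-glucan, a log2 fold change of 0.37 ± 0.11 (edgeR adjusted p = 0.144). Its groups met only at the PBS library that stood apart, replicate 2. Cdc20 read 43.3, 38.7, 42.4 and 41.6 CPM with PBS and 48.5, 50.5, 51.1 and 55.1 CPM with β-glucan, a log2 fold change of 0.30 ± 0.08 (edgeR adjusted p = 0.141). Cenpe was at 0.27 ± 0.09, Cenpa, the histone that marks centromeres, at 0.21 ± 0.08, and Ccna2 at 0.37 ± 0.14 (edgeR adjusted p = 0.175, 0.219 and 0.230). Without PBS replicate 2, edgeR called Plk1 (log2 fold change 0.48, adjusted p = 0.0415), the median over the 35 was 0.13 and 29 were above 0, while the median over all genes was -0.01. Plk1, Ube2c and Cdc20 have the 3 highest GC contents of the 35 (56.0, 55.5 and 55.6%), and over all genes the median log2 fold change was 0.08 at a GC content of 54% or more and -0.08 under 42%. Summed long-term HSC markers were 788 to 1215 CPM with PBS and 732 to 834 CPM with β-glucan, overlapping only through PBS replicate 2. Of the 20, edgeR called 0, with a median of -0.33 and 1 above 0. Without that library it called 3 lower and 0 higher, with a median of -0.45 and 0 above 0. There 22 of all 16295 genes were called lower. Red cell precursor markers summed to 198176 to 227072 CPM with PBS and 174601 to 192817 CPM with β-glucan, without overlap. The part of GC content and of these markers in the result was not tested.

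**Figure D3:**
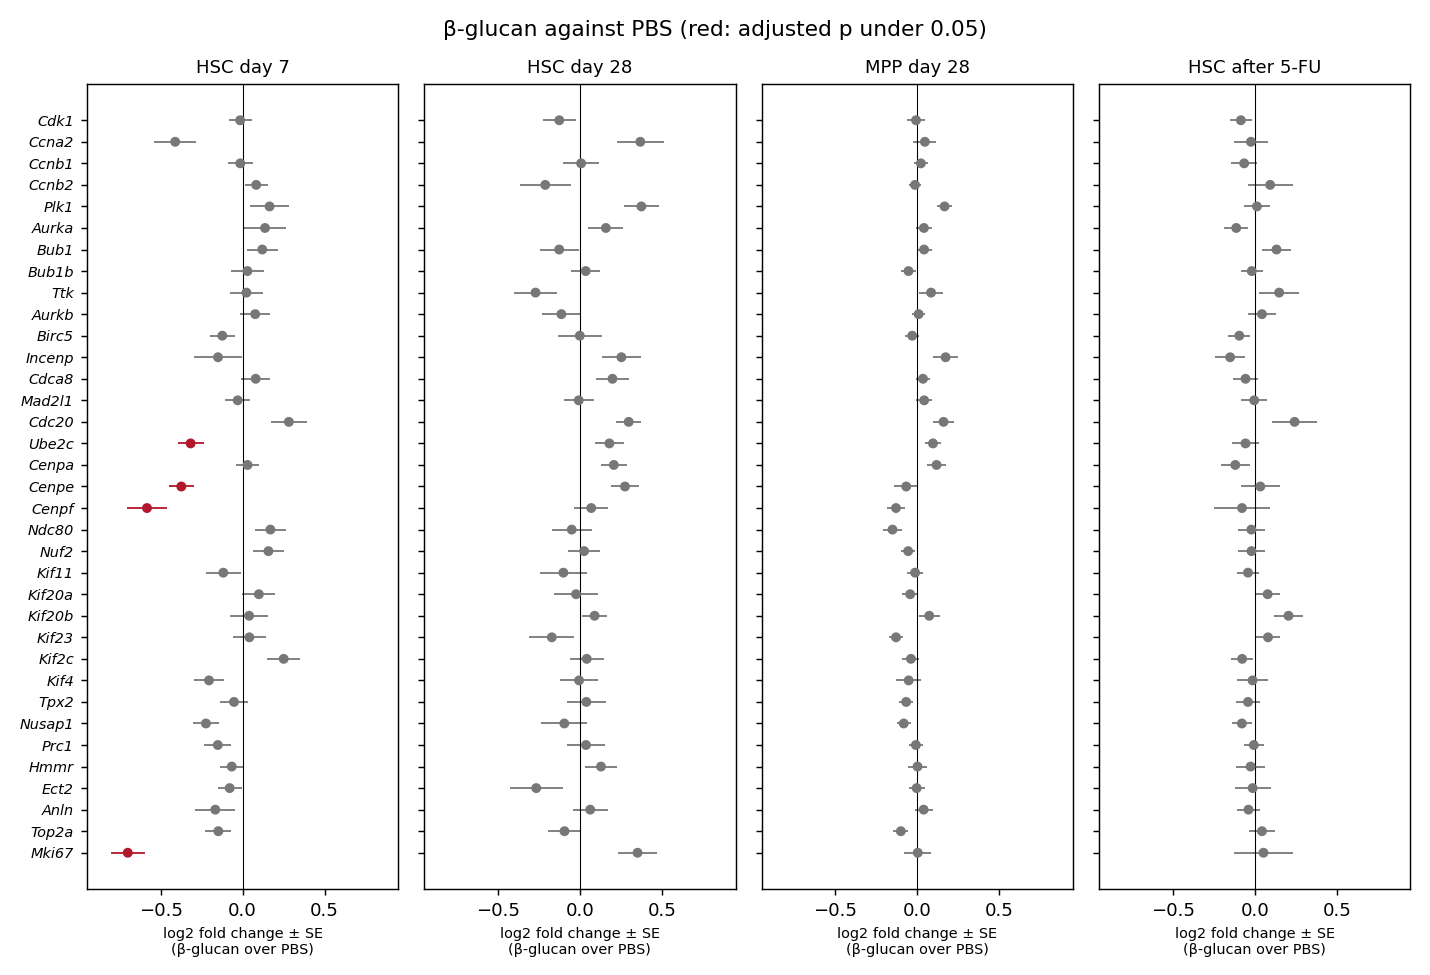
Log2 fold change with β-glucan (x axis, points, with SE bars) of each of the 35 genes in HSC at day 7, HSC at day 28, MPP at day 28 and HSC after 5-FU; red marks genes called by edgeR. The red points are the 4 lower genes at day 7, and most other points lie within 0.25 of 0.

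The β-glucan effect differed between the day 28 and day 7 libraries for 5 of the 35 genes, tested as day 28 minus day 7 in 1 fit of the 4 HSC groups. Each day was its own table, so day and table cannot be told apart in this difference. All 5 had the more positive effect at day 28, against 2.24% of 17977 genes called in that direction and 2.58% in the other, in which 0 of the 35 were called. The difference in log2 fold change was 1.03 ± 0.17 for Mki67, 0.62 ± 0.12 for Cenpe and 0.47 ± 0.12 for Ube2c (edgeR adjusted p = 0.00203, 0.00554 and 0.0305). It was 0.75 ± 0.20 for Ccna2 and 0.63 ± 0.17 for Cenpf (edgeR adjusted p = 0.0342 and 0.0406), with Incenp, a scaffold of the chromosomal passenger complex, next at 0.38 ± 0.19 (edgeR adjusted p = 0.311). Ube2c read 281, 354, 279.7 and 303 CPM with PBS and 346, 348, 336 and 358 CPM with β-glucan at day 28, Ccna2 33.6, 30.5, 46.2 and 28.9 CPM and 46.9, 39.8, 45.2 and 49.3 CPM, and Cenpf 70.8, 82.8, 72.9 and 75.8 CPM and 68.8, 77.2, 97.5 and 75.9 CPM. Each of these 3 overlapped between injections at day 28. Over the 35 the median difference was 0.02 and 18 were above 0, against a median of -0.02 over all genes. Without HSC PBS day 28 replicate 2 the median was 0.12 and 25 of the 35 were above 0, against -0.03 over all genes. Markers differed in the same test, with 13 of 17 red cell precursor genes called higher and 0 lower. Of 16 B lineage genes 10 were higher and 1 lower. Of 15 late neutrophil genes 10 were lower, and of 14 granulocyte and monocyte precursor genes 5, with 0 higher in either list. In each remaining marker list 1 gene was called. The part of these cells in the result was not tested.
Mki67 and Cenpe were called in all 24 alternatives, Ccna2 in 14, and Cenpf and Ube2c in 13 each. Without HSC PBS day 28 replicate 2, edgeR called 4 of the 35, and with the length trend taken out it also called 4 (Cenpf at 0.44, adjusted p = 0.156). It called 2 or 3 without PBS replicate 1, 2 or 4 or β-glucan replicate 1 or 3 of day 7, or without PBS replicate 1 or 4 or β-glucan replicate 1, 2 or 4 of day 28.

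In MPP at day 28, 0 of the 35 genes passed the edgeR test with β-glucan, against 4.63% of 15828 genes in either direction. The 35 had a median of -0.00, as did all genes, and ran only from -0.15 to 0.17. At an unadjusted p under 0.05 there were 6 of the 35 against 19.3% of all genes. DESeq2 called 1 of the 35 (Plk1), against 1302 of the 15828 genes in either direction. Plk1 read 159, 169, 165 and 168 CPM with PBS and 175, 189, 190.4 and 199 CPM with β-glucan. Every β-glucan library was higher, by a log2 fold change of 0.17 ± 0.05 (edgeR adjusted p = 0.0666), and without β-glucan replicate 1 edgeR called it. Plk1 was the only 1 of the 35 so separated upward, and 1 gene, Kif23, had every β-glucan library below every PBS library. The share of all genes so separated was not taken for MPP. Mki67 read 199.9, 229, 198 and 207 CPM with PBS and 213, 187, 249 and 199.7 CPM with β-glucan. The Mki67 libraries were interleaved, and the log2 fold change of 0.00 ± 0.08 had a 95% interval of -0.16 to 0.16. The next genes were Kif23, a kinesin of the central spindle (-0.13 ± 0.04), Ndc80, which binds microtubules at the kinetochore (-0.15 ± 0.06), Cdc20 (0.16 ± 0.06), Cenpf (-0.13 ± 0.06) and Incenp (0.17 ± 0.08), with edgeR adjusted p from 0.116 to 0.233. MPP of PBS mice were the most uniform group, with a median coefficient of variation of 3.57% over the 35 genes, against 16.9% in HSC of PBS mice at day 28, or 4.35% there without replicate 2. Among markers in MPP, 12 of 16 B lineage, 9 of 15 late neutrophil and 7 of 14 T and NK cell genes fell with β-glucan, against 1.91% of all genes. In the granulocyte and monocyte precursor list 6 of 14 rose, and 4 of 12 megakaryocyte genes rose, against 2.72%. The part of these cells in the result was not tested.

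The effect in MPP minus that in HSC at day 28 passed the edgeR test for 0 of the 35 genes, against 0.00599% of 16691 genes, with 3 of the 35 at an unadjusted p under 0.05 and 0 called by DESeq2. The differences of smallest p were -0.36 ± 0.15 for Mki67, -0.35 ± 0.12 for Cenpe and 0.35 ± 0.16 for Ttk (edgeR adjusted p = 0.799, 0.696 and 0.799), followed by -0.33 ± 0.16 for Ccna2, -0.22 ± 0.12 for Plk1 and -0.21 ± 0.12 for Cenpf. The median over the 35 was -0.05, and -0.17 without HSC PBS day 28 replicate 2.

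In HSC after 5-FU, 0 of the 35 genes passed the edgeR test with β-glucan, against 0.0446% of 15705 genes. The median over the 35 was -0.02 against -0.00 over all genes, 1 of the 35 was at an unadjusted p under 0.05 against 7.54% of all genes, and DESeq2 called 0. Mki67 read 90.5, 103, 64.2 and 55.3 CPM with PBS and 80.0, 84.7, 94.0 and 63.7 CPM with β-glucan, a log2 fold change of 0.05 ± 0.18 (95% interval -0.30 to 0.41). The PBS libraries of Mki67 spanned the whole β-glucan range. The genes of smallest p were Kif20b, a cytokinesis kinesin (0.21 ± 0.09), Cdc20 (0.24 ± 0.14), Incenp (-0.15 ± 0.09), Bub1, a checkpoint kinase (0.13 ± 0.09), Aurka, the centrosomal Aurora kinase (-0.11 ± 0.07) and Birc5, survivin (-0.09 ± 0.07), and the lowest edgeR adjusted p was 0.650. No gene of the 35 had groups that did not overlap.
The effect after 5-FU minus that in HSC at day 28 passed for 0 of the 35 as well, against 0.106% of 16985 genes, with 6 of the 35 at an unadjusted p under 0.05 and 0 called by DESeq2. The lowest edgeR adjusted p were 0.316 for Cenpa (-0.34 ± 0.12), 0.323 for Incenp (-0.42 ± 0.15) and 0.326 for Plk1 (-0.38 ± 0.14). Ccna2 (-0.41 ± 0.19), Ttk (0.40 ± 0.19) and Aurka (-0.29 ± 0.14) followed. The median was -0.07, and -0.20 without HSC PBS day 28 replicate 2. The day 28 HSC groups serve in this difference and in the 2 others, so their values are not independent.

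MPP were compared with HSC at day 28 within each injection, from the same groups as above. In PBS mice 3 of the 35 genes were higher in MPP, against 9.58% of 16122 genes, and 2 lower, against 12.1%, and neither share exceeded the background in the fit of all 8 libraries. Mki67 was higher (209 ± 14.3 CPM in MPP and 144 ± 4.53 in HSC, SD, n = 4 each), by a log2 fold change of 0.53 ± 0.07 (edgeR adjusted p = 0.000351). Cenpe read 82.5, 90.2, 73.2 and 89.8 CPM in MPP and 56.4, 61.6, 57.6 and 53.3 CPM in HSC, a log2 fold change of 0.55 ± 0.08 (edgeR adjusted p = 0.00102). Both genes were higher in all 4 MPP libraries than in any HSC library. Cenpf was higher as well, at 92.0, 94.1, 86.1 and 91.1 CPM in MPP (0.26 ± 0.07, edgeR adjusted p = 0.0187). Ube2c read 246, 267, 261 and 253 CPM in MPP, a log2 fold change of -0.25 ± 0.08 (edgeR adjusted p = 0.0423), and Cenpa read 92.6, 103, 104 and 93.2 CPM in MPP and 114, 128, 105 and 110.1 CPM in HSC, a log2 fold change of -0.23 ± 0.07 (edgeR adjusted p = 0.0496). Kif23 came next at 0.28 ± 0.10 (edgeR adjusted p = 0.0757).

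This comparison turned on the library that stood apart. Without HSC PBS replicate 2, edgeR called 20 of the 35, 17 higher and 3 lower in MPP, with a median of 0.16 in place of 0.03, while 14.3% of 16238 genes were called higher and 16.8% lower. The 17 covered most roles. Among them were Top2a (0.30), Kif23 (0.41), Ndc80 (0.32), Kif20a (0.32), Tpx2, which nucleates spindle microtubules (0.23), the checkpoint kinase Bub1b (0.23) and Aurkb (0.21). The 3 lower genes were Cdc20 (-0.19), Ube2c (-0.17) and Cenpa (-0.17). Red cell precursor markers summed to 158842 to 196054 CPM in MPP and 198176 to 227072 CPM in HSC of PBS mice, and their part in the result was not tested. Without HSC replicate 4, or without any 1 MPP library, edgeR called 2 or 3 genes. On library totals without TMM scaling, 9 of the 35 were called higher and 0 lower, against 2206 and 1401 of 16122 genes. That scaling moved the median of all genes from -0.02 to 0.05. With DESeq2's size factors in edgeR 3 were higher and 0 lower, against 1572 and 1887 of 16122 genes.

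In β-glucan mice 7 of the 35 genes were higher in MPP, against 17.7% of 15945 genes, and 6 lower, against 18.0%. Replicate numbers paired the libraries of this comparison, and with the number as a block edgeR called 17 of the 35, 10 higher against 20.3% of all genes and 7 lower against 21.8%. The 4 genes added were Mki67, Cenpe (0.21, adjusted p = 0.00808) and Kif20b (0.17, adjusted p = 0.0374), higher in MPP, and Aurka (-0.16, adjusted p = 0.0335), lower. Ccna2 was lowest relative to HSC, with 27.6, 30.3, 33.8 and 29.5 CPM in MPP and 46.9, 39.8, 45.2 and 49.3 CPM in HSC, a log2 fold change of -0.59 ± 0.08 (edgeR adjusted p = 0.000386). Ttk read 35.1, 34.1, 38.1 and 32.2 CPM in MPP and 25.6, 27.3, 26.3 and 24.9 CPM in HSC, a log2 fold change of 0.41 ± 0.07 (edgeR adjusted p = 0.00105). Neither gene overlapped between the cell types. The other lower genes were Ube2c (-0.33 ± 0.06), Cenpa (-0.31 ± 0.06), Cdc20 (-0.28 ± 0.07), Plk1 (-0.28 ± 0.07) and Anln, the cytokinesis protein anillin (-0.21 ± 0.06). The other higher genes were Kif23 (0.32 ± 0.10), Ect2, which triggers the cleavage furrow (0.22 ± 0.07), Top2a (0.21 ± 0.06), Bub1 (0.20 ± 0.07), Aurkb (0.19 ± 0.05) and Mad2l1, the checkpoint protein Mad2 (0.19 ± 0.07). Mki67 did not pass without the block (0.19 ± 0.13, edgeR adjusted p = 0.264). It passed with the block (0.20, edgeR adjusted p = 0.0287) and was higher in MPP in all 4 pairs.
On library totals without TMM scaling 12 were called higher and 3 lower, against 3926 and 1861 of 15945 genes. The median of all genes moved there from -0.01 to 0.09. The Ccna2, Ttk, Cenpa and Ube2c calls held in all 17 alternatives. Without HSC replicate 1 or 4, or MPP replicate 1 or 3, edgeR called 7 or 8 of the 35. Over all genes the median was 0.07 at a GC content under 42% and -0.09 at 54% or more, the range that holds Plk1, Cdc20 and Ube2c, and its part in the result was not tested. Of 19 long-term HSC markers tested in PBS mice, 12 were lower in MPP and 1 higher, against 12.1% and 9.58% of all genes. Without HSC PBS replicate 2 it was 17 and 1 of 20, against 16.8% and 14.3%. In β-glucan mice 13 of 20 were lower and 3 higher, against 18.0% and 17.7%.

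**Figure D4:**
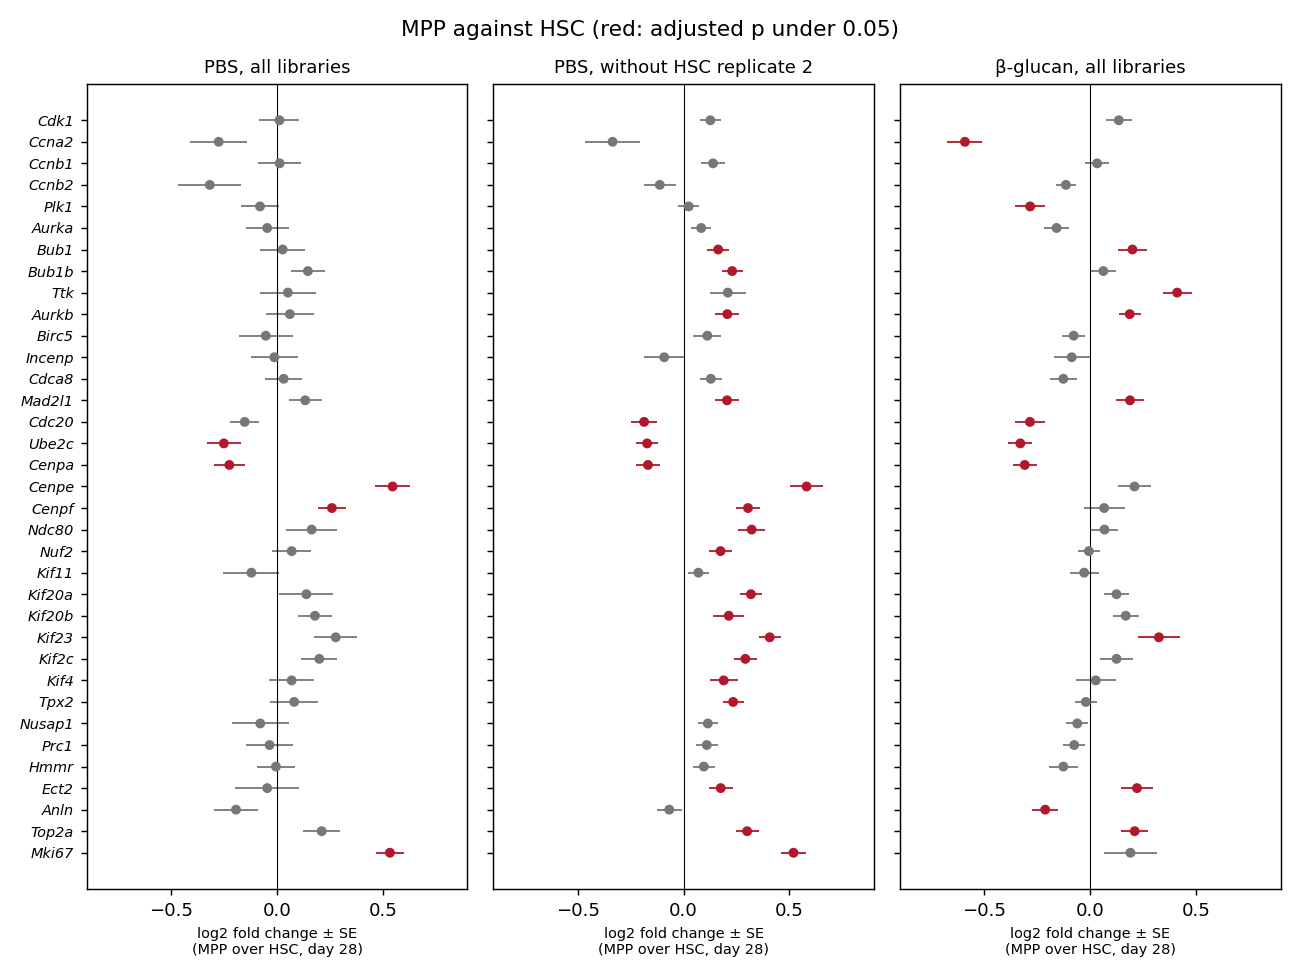
Log2 fold change of MPP against HSC at day 28 (x axis, points, with SE bars) for each of the 35 genes in PBS mice, in PBS mice without HSC replicate 2 and in β-glucan mice; red marks genes called by edgeR. Called genes number 5, 20 and 13 in the 3 panels.

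The wider cell cycle lists gave the following counts. At day 7 in HSC, 0 of 32 other kinetochore genes and 1 of 30 other spindle and cytokinesis genes were called with β-glucan (Kif18a, -0.35 ± 0.09). Among 43 DNA replication genes 3 fell and 0 rose, Rrm2, a ribonucleotide reductase subunit (-0.41 ± 0.08), and the DNA polymerase subunits Pole (-0.53 ± 0.09) and Pola1 (-0.39 ± 0.08), with a median of -0.18 and 4 of 43 above 0. Of 18 condensin, cohesin and separase genes 2 fell (Ncapg2, -0.43 ± 0.08, and securin, Pttg1, -0.30 ± 0.08), and 0 of 18 were above 0. Of 17 APC/C genes 2 fell (its inhibitor Fbxo5, -0.34 ± 0.07, and its activator Fzr1, -0.42 ± 0.10). Of 24 genes of G2 and M phase entry and of cell cycle transcription control 2 fell. They were Cdc25b, a phosphatase that activates Cdk1 (-0.74 ± 0.09), and E2f4, a repressor of cell cycle genes (-0.77 ± 0.16). Of 12 G1 brakes and D cyclins 1 fell, Cdkn1b, the CDK inhibitor p27 (-0.38 ± 0.10). These lists held 0 rising genes at day 7. The shares are to be read against the 3.88% of all genes called lower there.

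In HSC at day 28 and after 5-FU, 0 genes of these 7 lists were called by edgeR. Without PBS replicate 2 the count at day 28 was also 0. In MPP 10 of their 176 genes rose with β-glucan and 0 fell, against 2.72% and 1.91% of all genes, 4 of them DNA replication genes, among them Mcm6, a subunit of the replicative helicase (0.83 ± 0.15), Rfc5 (0.99 ± 0.19) and the licensing factor Cdt1 (0.36 ± 0.08). The others were Racgap1 (0.78 ± 0.16), Nek2 (0.79 ± 0.19), Cenpk (0.25 ± 0.06), Anapc2 (0.58 ± 0.13), Nfyc (0.52 ± 0.11) and the D cyclin Ccnd3 (0.38 ± 0.09). For the day 28 minus day 7 difference, 40 of the 43 DNA replication genes were above 0 with a median of 0.20, and 2 were called, both higher, against 2.24% of all genes. Without HSC PBS day 28 replicate 2 it was 41 of 43, with a median of 0.28 and 6 called, all higher. Between MPP and HSC, 13 of these 176 genes were higher in MPP and 16 lower in PBS mice, against 9.58% and 12.1% of all genes. In β-glucan mice 25 were higher and 32 lower, against 17.7% and 18.0%. Of 24 genes of G2 and M phase entry and of cell cycle transcription control 0 were higher in MPP in either injection group. In that list 4 were lower in PBS mice (5 without HSC replicate 2) and 10 in β-glucan mice, among them E2f2 (-0.70 ± 0.10 and -0.98 ± 0.08). Cdkn1b was lower in MPP in both PBS and β-glucan mice (-0.68 ± 0.10 and -0.92 ± 0.10). Of 43 DNA replication genes 2 were higher and 3 lower in PBS mice (17 and 4 without HSC replicate 2) and 7 and 4 in β-glucan mice. Of 32 other kinetochore genes it was 4 and 0 (11 and 0) and 7 and 1. Of 30 other spindle and cytokinesis genes it was 3 and 2 (11 and 2) and 6 and 3. Without HSC replicate 2, 14.3% of all genes were called higher and 16.8% lower in PBS mice. The plot of summed levels sets the 35 mitosis genes beside the long-term HSC and red cell precursor markers in each library.

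**Figure D5:**
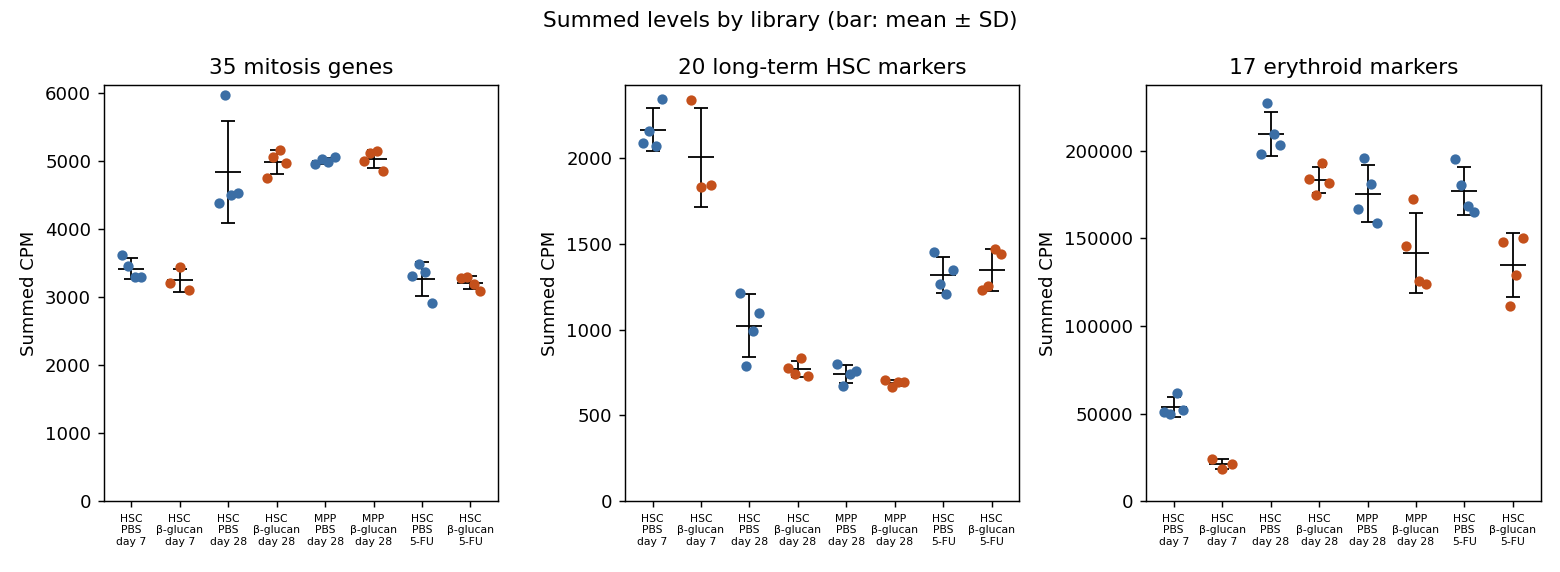
Summed CPM of the 35 mitosis genes, the 20 long-term HSC markers and the 17 red cell precursor markers in each of the 31 libraries (points), by group. HSC PBS day 28 replicate 2 is the highest library for the mitosis genes (5963 CPM), and day 7 holds the highest HSC marker sums and the lowest red cell precursor sums.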

How the data were processed

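Gene counts were deposited by the authors in 3 tables. The submitters' processing notes name bcl2fastq 1.8.4, featureCounts and mm10; an aligner is not named in the sources used here. The SMARTer Ultra kit named in the labels' protocols does not mark strand, so reads of overlapping genes cannot be told apart. Beside Ube2c, genes on the opposite strand overlap 33.2% of the exonic bases of Kif20a (Cdc23) and 15.1% of Kif4 (Pdzd11). They also overlap 12.5% of Ccna2 (Exosc9), 11.1% of Prc1 (Rccd1) and 7.08% of Plk1 (Gm44985). Of the 50-base stretches of Cdc20 and Plk1, 10.6% and 10.4% also occur in other genes, chiefly Gm7856 and Plk-ps1. Libraries were grouped by their titles. The tables name neither day nor 5-FU: the table of 7 columns was taken as day 7, that with MPP as day 28 and the remaining one as 5-FU, with P and G read as PBS and β-glucan. For 1 MPP library (PBS) an HSC tag contradicted the title, which was followed. No per-sample column was left unused (0). Gene symbols came from GENCODE M21 (45143 of 45706 identifiers).

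Counts were tested in R 4.3.3 with edgeR 4.0.16 (filterByExpr, minimum count 10, TMM, quasi-likelihood test, Benjamini-Hochberg over all genes tested, threshold 0.05), on the groups compared and without a replicate block. The procedure was tested on simulated data. CPM use TMM factors over all 31 libraries, and the SE is the absolute log2 fold change divided by the square root of F. Alternatives used DESeq2 1.42.0, limma 3.58.1, other scalings and filters, a replicate block, a length trend and leaving out each library. Replicate numbers paired HSC and MPP of β-glucan mice at day 28 by the correlation of their deviations (0.13 to 0.24 in all 4 pairs), and the block called 17 of the 35 genes there. In the other comparisons the same number was not the best match for every library, and the numbers were not read as pairs. With β-glucan against PBS in MPP it was the best match for replicates 2, 3 and 4 (0.04, 0.12 and 0.12) and not for replicate 1.

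The 35 genes and the lists were chosen with earlier results of these data known. In each comparison up to 12 called genes, or the 6 of smallest p, were named. Mad2l1 was the 13th called gene in β-glucan mice and was named after its values were seen, as were the genes picked from the 20 called without HSC PBS day 28 replicate 2 and the genes given only as ranges or levels. Mki67, Top2a, Cdk1, Ccnb1, Plk1 and Aurkb were given in every library, and up to 3 called genes of each other list were named.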

Additional observations from a re-analysis of the deposited data

Results flagged for a closer look

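A gene's level in each group of 4 libraries was compared with the spread of the other 3 by Dixon's criterion, which flags about 1 in 20 groups by chance. Of 252 values tested, 21 passed, and 11 of them were in HSC of PBS mice at day 28, replicate 2. In that library the 35 genes summed to 5963 CPM (4386 to 4523 in the other 3). Its other levels past the criterion were Nusap1 391.3 CPM, Prc1 315.3, Cdk1 262.2, Tpx2 188.6, Kif11 177, Kif20a 170.8, Ect2 118.8, Bub1 87.76, Anln 79.59 and Ndc80 69.29 CPM, each the highest of its group.

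Outside that library, the values high in their group were Top2a at 679.9 CPM in β-glucan HSC at day 28 replicate 3, Kif20a at 149.0 and Tpx2 at 160.6 CPM in PBS MPP replicate 4, Ccnb1 at 129.1 CPM in PBS MPP replicate 3 and Kif23 at 80.85 CPM in β-glucan HSC after 5-FU replicate 1. Low in their group were Aurkb at 124.2 CPM in β-glucan HSC at day 28 replicate 1, Kif11 at 110.3 CPM in β-glucan MPP replicate 4, Anln at 51.63 CPM in PBS MPP replicate 1, and Prc1 at 147.4 and Ndc80 at 46.15 CPM in PBS HSC after 5-FU replicate 4.

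The β-glucan effect in HSC differed between day 28 and day 7 by edgeR's test of the difference for Mki67 (1.03 on the log2 scale), Ccna2 (0.75), Cenpf (0.63), Cenpe (0.62) and Ube2c (0.47). Day and table cannot be told apart in this difference.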

How the results depend on the processing

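Of the alternatives' values that answer a comparison, 307 were counted as the same. Of the rest, 6 medians moved further than the spread, 26 counts of calls were clearly lower and 11 clearly higher. A median was the same if it moved by less than the spread, and a count of calls if its ratio to the main count stayed small. Some of the 307 therefore also had fewer or more calls, such as 3 in place of 4 at day 7 without PBS replicate 1. Another was 9 in place of 13 for MPP against HSC in β-glucan mice without HSC replicate 2. Of those of single genes, 1038 kept their side, 99 lost it and 18 gained it. No gene named for a comparison changed the direction of a called value. The median over the 35 genes, where it lay near 0, took the other sign in 18 of 175 alternatives, at -0.026 to 0.083, none of them for MPP minus HSC or 5-FU minus day 28. The counts below are of the 35 genes called. At day 7 (4) a replicate block gave 2, the length trend 2 and leaving out 1 library 1 to 4. In HSC at day 28 (0) DESeq2 and limma voom gave 2, all 8 groups in 1 fit 1 and leaving out 1 library 0 to 1. In MPP (0) library totals without TMM and DESeq2 gave 1 and leaving out 1 library 0 to 1. For MPP against HSC in PBS mice (5) DESeq2's size factors gave 3, totals without TMM 9, limma voom 14, the length trend 8 and leaving out 1 library 2 to 20. In β-glucan mice (13) all 8 groups in 1 fit gave 8 and leaving out 1 library 7 to 17. For day 28 minus day 7 (5) a replicate block gave 3 and leaving out 1 library 2 to 5. The median log2 fold change without TMM was 0.083 in MPP, 0.125 for MPP against HSC with β-glucan and 0.162 for day 28 minus day 7, where limma voom gave 0.148. Leaving out 1 library gave medians from -0.171 to -0.020 for MPP minus HSC and from -0.204 to -0.025 for 5-FU minus day 28. The cause of these shifts was not tested. With a replicate block, which pairs libraries by number, β-glucan mice gave 17 in MPP against HSC, PBS mice 5, and HSC at day 28, MPP and HSC after 5-FU 0 each. In no comparison outside β-glucan mice did the numbers pair all the libraries. With 3 or 4 libraries a group and SEs of 0.07 to 0.14 at day 7, small changes were not detectable.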
